A study of Mus musculus with 10 samples.

Results

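Motile cilia genes encode the parts of the beating cilia that ependymal cells carry on the walls of the brain ventricles. The list held 34 of them: regulators of multiciliated cells, axonemal dynein heavy chains, radial spoke, central pair and ruler proteins, tektins and 9 other genes of motile cilia. Probes were assigned to a gene through the RefSeq transcript accession in the scanner files, and the brightest kept probe stood for each gene. Of the 34 genes, 31 had at least 1 probe (42 probes in all) and 27 were measured, among 23574 features tested. No probe was matched for Ccdc40, Dnah7b and Dnah12, and Spag16, Spag17, Dnah9 and Ak7 had no probe well above background on at least 5 arrays.

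The arrays held RNA from the adult mouse hippocampus of 5 DLK wild-type (WT) and 5 DLK conditional knockout (cKO) samples. DLK is the dual leucine zipper kinase, a stress kinase of neurons encoded by Map3k12. Mice of both genotypes ate a tamoxifen diet for 3 weeks, so the drug was shared by the groups. On every array the hippocampus was labelled with Cy5 and hybridised (750 ng of labelled cRNA) against the Stratagene Universal mouse reference in Cy3, with no dye swap. The sources used here do not give the recombinase, the cells that express it, the sex of the animals or their age in weeks. The labels number 5 replicates in each genotype without stating that each is a separate animal. If some share an animal, the p-values measure only the spread between these samples.

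Motile cilia beat because rows of dynein motors slide the microtubules of the axoneme against each other, while radial spokes and a central pair of microtubules set when each motor is active. Cells that carry many such cilia switch the program on with multicilin (Mcidas), which acts early, and with Foxj1, which keeps the ciliary genes on in the mature cell together with RFX factors. In the brain these cells line the ventricles and move the cerebrospinal fluid. The ventricle borders the hippocampus, and the choroid plexus, which secretes the fluid, lies in it.

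Across the 5 cKO and 5 WT samples no motile cilia gene passed the test. A gene was called where the limma adjusted p (Benjamini-Hochberg over all features) was under 0.05. Of the 27 measured genes, each read at its brightest kept probe, 0 were called and 0 had an unadjusted p under 0.05. In 0 did the values of the groups fail to overlap. The background was low in this comparison as well: 0.00424% of all features were called, 3.86% had an unadjusted p under 0.05, and 0.768% had groups that did not overlap. The mean was higher in cKO for 19 of the 27 genes (70.4%), against 54.8% of all features. The median difference, cKO minus WT, was 0.09 on the log2 scale, against 0.01 over all features, and single differences ran from −0.14 for Ccno to 0.63 for Dynlrb2. In RNA of a whole hippocampus, fewer cells of a type and less RNA per cell cannot be told apart.

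The median Cy5 signal ran from 146 to 202 over the 10 arrays, on backgrounds of 29 to 31, and 69.6% to 76.1% of probes exceeded background clearly. Map3k12, the targeted gene, had log2 ratios between 1.74 and 2.15 on the WT arrays and between 0.11 and 0.68 on the cKO arrays. It fell by 1.41 (SE 0.12, limma adjusted p = 0.000975) and was the only feature called. With the Cy5 channel alone it did not pass (−1.17, limma adjusted p = 0.0673), and 1 other feature did. All 12 marker genes of hippocampal neurons were well above background on all 10 arrays. So were the 10 ependymal genes that are not part of the cilium, except Gm973 (4 WT and 3 cKO arrays). WT replicate 5 and cKO replicate 5 stood apart from the other arrays: 20.1% of all features were lowest on the first and 20.7% were highest on the second. WT replicate 5 also had the highest median Cy5 signal (202) and cKO replicate 5 the lowest (146). The arrays lay on 3 slides, 1 with 4 cKO arrays, 1 with 3 WT and 1 cKO array, and 1 with 2 WT arrays.

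A sequence that the choice of genes did not use, an arm of the X-box, was searched in the promoters. Of those that hold it, 6 are shown: the regulators Mcidas and Ccno, then Tekt1, Dynlrb2 and Mlf1, which varied widely, and the single full match. They are a selection. The regulators Rfx2 and Rfx3 hold it too, and Tmem212, which also varied widely, does not. RFX factors bind the X-box, a pair of inverted arms, GTTNCC and GGNAAC, around a spacer of N, NN or NNN. It was searched in full and by its arm GTTGCC alone. FOXJ1 belongs to the forkhead factors, whose motif was searched as TGTTTAC. Both strands were read in RefSeq windows from 250 bases before to 50 bases after each start site (GRCm38.p6), and a full X-box can contain the arm. Capitals mark the arm, or the full X-box in Iqca, and an arm on the other strand reads GGCAAC.
Mcidas, chr13:112993653-112993698, + strand: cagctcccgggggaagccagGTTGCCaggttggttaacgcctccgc
Ccno, chr13:112987563-112987608, + strand: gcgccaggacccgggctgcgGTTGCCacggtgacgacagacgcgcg
Tekt1, chr11:72361872-72361937, − strand: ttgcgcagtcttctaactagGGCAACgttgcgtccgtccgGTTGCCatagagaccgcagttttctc
Dynlrb2, chr8:116504944-116504989, + strand: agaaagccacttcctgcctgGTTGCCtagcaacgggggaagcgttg
Mlf1, chr3:67373972-67374017, + strand: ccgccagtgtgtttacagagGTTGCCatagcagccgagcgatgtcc
Iqca, chr1:90153503-90153556, − strand: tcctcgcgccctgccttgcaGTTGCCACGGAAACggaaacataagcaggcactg

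Of the 34 genes, 30 were found in the promoter table; Foxj1, Rsph1, Rsph4a and Tppp3 were not. The arm stood in the window of 15 of the 30, against 14.1% of the 27025 genes in the table. These were Ccno, Mcidas, Rfx2, Rfx3, Tekt1, Tekt2, Tekt4, Hydin, Spag16, Dnah7b, Dnah10, Enkur, Iqca, Mlf1 and Dynlrb2. Its first base lay 51 bases before the start site in Dynlrb2 and 105 before it in Mlf1, and in Tekt1 the pair of arms on opposite strands was separated by 14 bases. A full X-box was found in 1 of the 30, Iqca, against 0.903% of all genes, and the forkhead motif in 2 (Ak7 and Mlf1), or 6.67%, against 4.05%. A match is a description of letters, and a window without one says only that these letters are not in it.

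Of the 5 regulators, Foxj1 had the largest range over the 10 arrays, and the other 4 ranged over at most 0.69 on the log2 scale. The log2 ratio of Foxj1, the factor that maintains the motile cilium program, was 2.15, 2.60, 2.11, 1.999 and 1.69 in WT replicates 1 to 5. The cKO arrays 1 to 5 had 2.14, 2.70, 2.15, 2.35 and 2.90. WT replicate 5 was the lowest and cKO replicate 5 the highest of all 10, and replicates 1 and 3 of both genotypes lay within 0.05 of each other, so the groups overlapped. The WT mean was 2.11 ± 0.33 and the cKO mean 2.45 ± 0.34 (SD, n = 5 each), a difference of 0.34 (SE 0.18, 95% interval −0.04 to 0.72) that did not pass (limma adjusted p = 0.99995). Leaving out cKO replicate 5 gave 0.22, and leaving out both arrays numbered 5 gave 0.12.

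Mcidas, the coactivator that starts the multiciliated program, had log2 ratios of 0.90, 1.05, 0.999, 0.97 and 1.32 in WT replicates 1 to 5. In the cKO group they were 1.17, 1.19, 0.84, 1.23 and 0.88. Here WT replicate 5 was the highest array and cKO replicate 5 the second lowest, the opposite order to Foxj1. The difference was 0.01 (SE 0.10, 95% interval −0.20 to 0.23). This probe was bright in both channels, with Cy5 signals of 22033 to 40305 and Cy3 signals of 14127 to 16812. It was the only Mcidas probe, and whether it reads this transcript alone was not tested.

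Ccno, cyclin O, which acts in the production of the many basal bodies, had values of 0.22, −0.05, −0.22, −0.17 and 0.40 in WT replicates 1 to 5. The same replicates of the cKO group had −0.07, −0.25, −0.29, 0.12 and −0.03. WT replicate 5 was again the highest, and the groups overlapped over most of their range. The difference was −0.14 (SE 0.12, 95% interval −0.40 to 0.13), the lowest of the 27.

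Rfx3, an RFX factor of cilia, had values of 0.20, 0.25, 0.48, 0.38 and 0.29 in WT and 0.55, 0.32, 0.29, 0.55 and 0.44 in cKO, each in the order of replicates 1 to 5. The difference was 0.11 (SE 0.07) at this probe, and −0.05 and −0.02 at the other 2 probes of the gene, so the probes did not share a direction. Rfx2, a second RFX factor, had values of −0.77, −0.62, −0.67, −0.57 and −0.60 in WT and −0.83, −0.69, −0.68, −0.72 and −0.48 in cKO. Its difference was −0.03 (SE 0.07), and its probe was well above background on 4 WT and 3 cKO arrays.

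**Figure D1:**
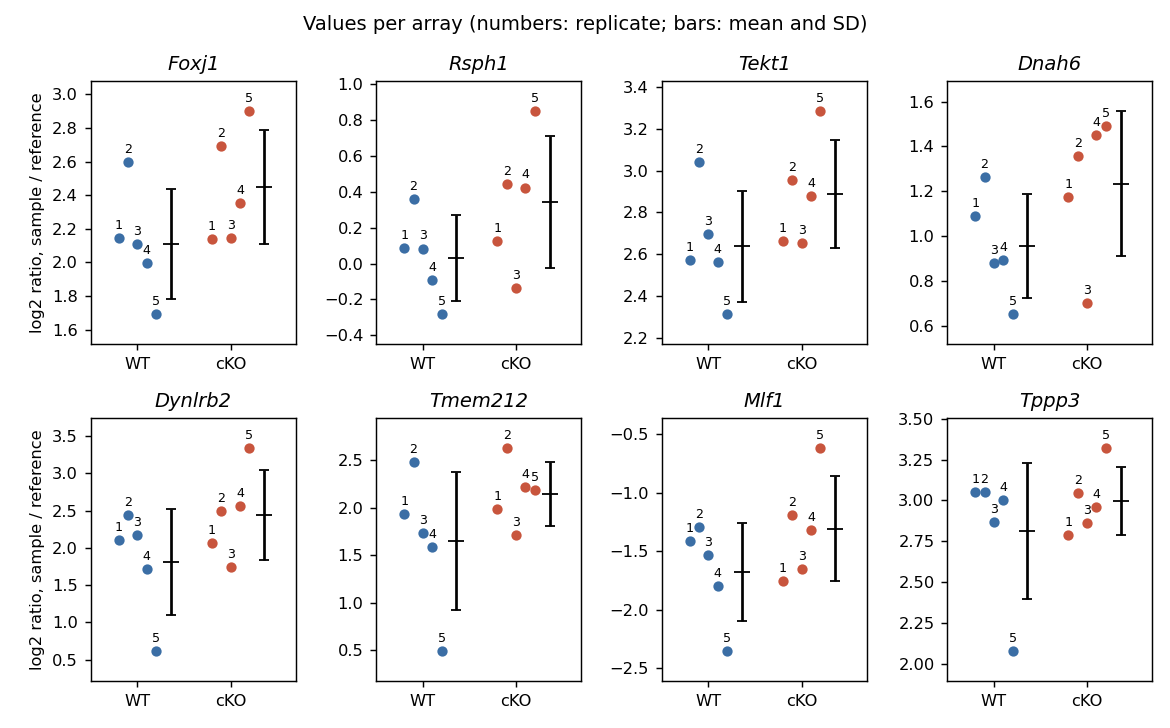
Log2 ratio of hippocampus over reference for 8 motile cilia genes; points are arrays with their replicate number, blue for WT and red for cKO, and the bars are the mean and SD of 5 arrays. WT replicate 5 is the lowest point in all 8 panels, and cKO replicate 5 is the highest in all but Tmem212, where cKO replicate 2 is. The 8 genes are a selection: of all 27 genes, 11 were lowest on WT replicate 5 and 14 were highest on cKO replicate 5.

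Among the 3 radial spoke genes, which encode the spoke head, Rsph1 differed from Rsph4a and Rsph9 in how far it ranged. The log2 ratios of Rsph1 were 0.09, 0.36, 0.08, −0.09 and −0.28 in WT replicates 1 to 5 and 0.13, 0.45, −0.13, 0.42 and 0.85 in cKO replicates 1 to 5. The lowest array was WT replicate 5 and the highest cKO replicate 5, and cKO replicate 3 lay below 4 of the WT arrays. Its means were 0.03 ± 0.24 and 0.34 ± 0.37 (SD, n = 5 each), with a difference of 0.31 (SE 0.16, 95% interval −0.05 to 0.67). The difference was 0.18 without cKO replicate 5 and 0.11 without both arrays numbered 5. A second, dimmer Rsph1 probe differed by 0.30 (SE 0.10, limma unadjusted p = 0.0147, adjusted p over the kept probes = 0.99995). The gene thus had an unadjusted p under 0.05 at this probe but not at its brightest. The differences of Rsph4a and Rsph9 were −0.03 (SE 0.11) and −0.00 (SE 0.06). Ccdc39, which with Ccdc40 forms the ruler that spaces the spokes and dynein arms along the axoneme, differed by −0.06 (SE 0.07).

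Tektins are filament proteins inside the microtubule doublets, and Tekt1 was the one that varied. Its log2 ratios were 2.57, 3.04, 2.70, 2.56 and 2.31 in WT replicates 1 to 5 and 2.66, 2.96, 2.65, 2.88 and 3.28 in cKO replicates 1 to 5. The lowest and highest arrays were again WT replicate 5 and cKO replicate 5. The difference was 0.25 (SE 0.14, 95% interval −0.05 to 0.56), and 0.21 at the second Tekt1 probe. At the first it was 0.15 without cKO replicate 5 and 0.07 without both arrays numbered 5. Tekt2 and Tekt4 differed by −0.04 and 0.09, and Hydin, the measured gene of the central pair, by 0.05 (SE 0.07).

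The 6 measured dynein heavy chains, the motors of the axoneme, had differences from −0.04 for Dnah1 to 0.28 for Dnah6. Dnah6, an inner arm chain, had log2 ratios of 1.09, 1.27, 0.88, 0.90 and 0.65 in WT replicates 1 to 5. The 5 cKO arrays, in the same order, had 1.17, 1.36, 0.70, 1.45 and 1.49. The values of cKO replicate 3 fell between those of WT replicates 5 and 3, and the other 4 cKO arrays lay above 4 of the WT arrays. The difference was 0.28 (SE 0.15, 95% interval −0.05 to 0.60). With the processed signals of the scanner software it was 0.94 (SE 0.20, limma unadjusted p = 0.000956, adjusted p = 0.9997), and without both arrays numbered 5 it was 0.14.

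Dnah11, an outer arm chain, had log2 ratios of −0.14, 0.19, 0.00, −0.22 and −0.29 in WT replicates 1 to 5. For cKO they were 0.04, 0.31, −0.36, 0.27 and 0.52. Here cKO replicate 3 was the lowest array and cKO replicate 5 the highest, so that the cKO group spanned the whole WT range. The difference was 0.25 (SE 0.15), 0.64 with the processed signals, 0.38 without cKO replicate 3 and 0.16 without cKO replicate 5. Dnah10 and Dnah2 differed by 0.20 (SE 0.14) and 0.11 (SE 0.15), and Dnah10 by 0.69 with the processed signals. Dnah5, the main outer arm chain, differed by −0.01 (SE 0.06), and its reference channel was well above background on 0 of 10 arrays, so its log ratio rests on a dim denominator. The same limit held for Iqca (0 of 10 arrays), Ccdc39 (1), Dnah1 (2), Dnah2 (2) and Meig1 (3).

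**Figure D2:**
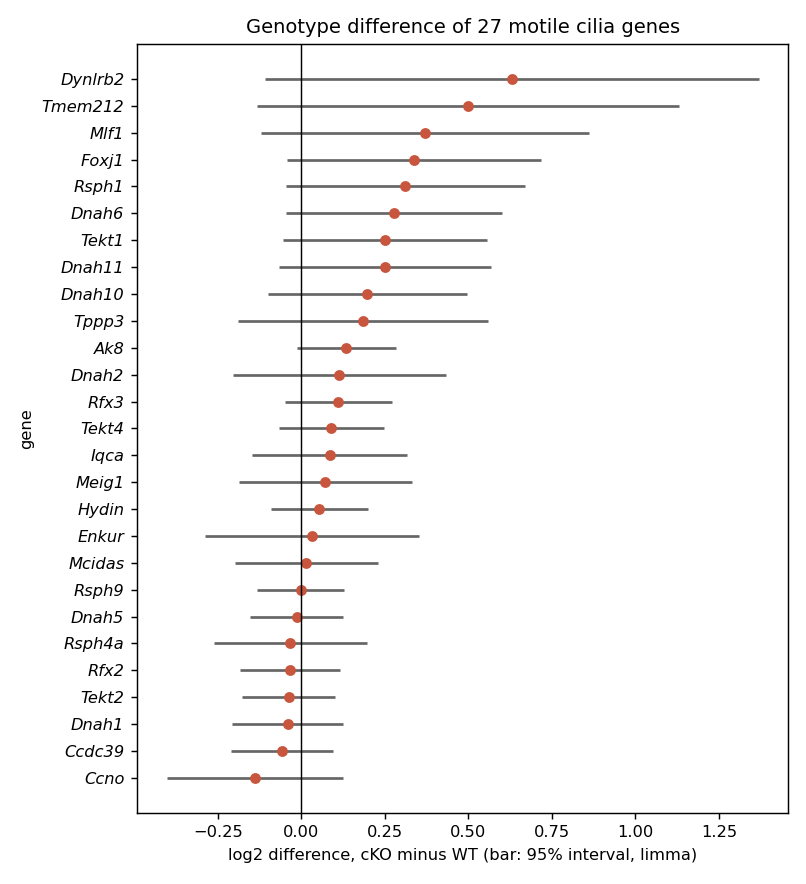
Difference in log2 ratio, cKO minus WT, for each of the 27 measured motile cilia genes, with its 95% interval from limma; genes are ordered by the difference. Every interval contains 0, and the widest belong to Dynlrb2, Tmem212 and Mlf1.

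Of the 9 other genes of motile cilia, the 8 measured all had a higher mean in cKO, and 4 of them varied widely. Dynlrb2, a roadblock light chain of dynein, had log2 ratios of 2.11, 2.44, 2.18, 1.72 and 0.62 in WT replicates 1 to 5. In cKO replicates 1 to 5 they were 2.07, 2.50, 1.74, 2.57 and 3.34. The 2 arrays numbered 5 were the ends of the range, 2.72 apart on the log2 scale, and the other 8 arrays overlapped between 1.72 and 2.57. The uncorrected Cy5 signal of the spot ran the same way, from 337 on WT replicate 5 to 1113.5 on cKO replicate 5. The means were 1.81 ± 0.71 and 2.44 ± 0.60 (SD, n = 5 each), and the difference was 0.63 (SE 0.34, 95% interval −0.11 to 1.37). Leaving out WT replicate 5 gave 0.33, leaving out cKO replicate 5 gave 0.41, and leaving out both gave 0.11.

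Tmem212, which encodes a membrane protein, had log2 ratios of 1.93, 2.47, 1.73, 1.59 and 0.50 in WT replicates 1 to 5. The cKO arrays had 1.99, 2.62, 1.71, 2.22 and 2.18. One array, WT replicate 5, lay far below the other 9, with a Cy5 signal of 107 against 235.5 to 613 on the others. The difference of 0.50 (SE 0.29) was 0.21 without that array. The reference signal of this probe was well above background on 4 of 10 arrays.

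Mlf1, myeloid leukemia factor 1, had log2 ratios of −1.41, −1.29, −1.53, −1.80 and −2.35 in WT replicates 1 to 5. On the cKO arrays they were −1.75, −1.19, −1.65, −1.32 and −0.62. The arrays numbered 5 were again the lowest and the highest, and without both the difference of 0.37 (SE 0.23) was 0.03. Ak8, an adenylate kinase, had the smallest unadjusted p of the 27 genes, 0.0723 (limma), at a difference of 0.13 (SE 0.07). Its values were 0.69, 0.56, 0.50, 0.67 and 0.56 in WT and 0.68, 0.74, 0.57, 0.74 and 0.92 in cKO, each in the order of replicates 1 to 5.

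Tppp3, a tubulin polymerisation protein, had log2 ratios of 3.05, 3.05, 2.87, 3.00 and 2.08 in WT replicates 1 to 5 and 2.79, 3.05, 2.86, 2.96 and 3.32 in cKO replicates 1 to 5. Leaving aside both arrays numbered 5, the genotypes covered nearly the same values, and the difference of 0.18 (SE 0.17) was −0.08. Enkur, a calmodulin-binding protein of the axoneme, Meig1, which is needed for the sperm flagellum, and Iqca, of the nexin-dynein regulatory complex, differed by 0.03, 0.07 and 0.08.

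**Figure D3:**
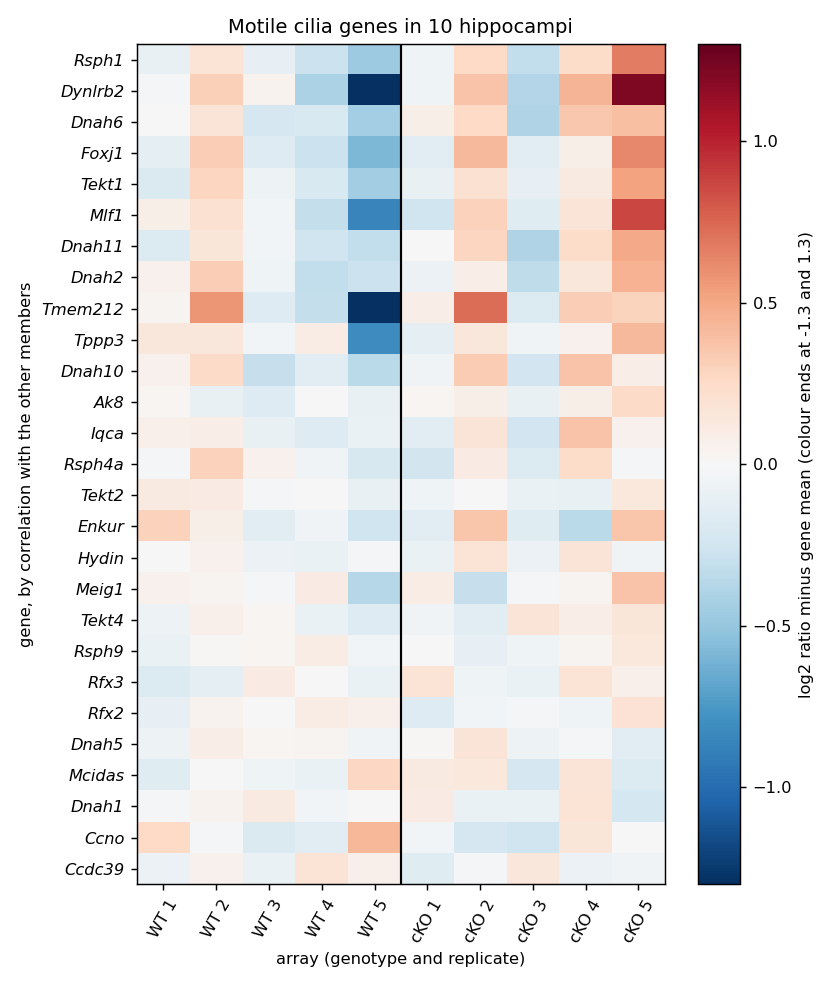
Log2 ratio of each of the 27 measured motile cilia genes (rows) on each array (columns), minus the gene's mean over the 10 arrays; red is above and blue below that mean, and the colour ends at 1.3 either way. The upper rows are pale on most arrays, blue on WT replicate 5 and red on cKO replicate 5, while the lower rows, such as Ccno and Ccdc39, do not share that pattern.

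The mean level of the 27 genes differed between samples, and these differences ran within both genotypes. Averaged over the 27 genes, each centred on its own mean, the log2 level was −0.01, 0.13, −0.06, −0.10 and −0.30 in WT replicates 1 to 5. In cKO replicates 1 to 5 it was −0.04, 0.13, −0.15, 0.13 and 0.26. A cKO array was thus the second lowest (replicate 3), and WT replicate 2 was as high as cKO replicates 2 and 4. The 6 genes with a range of at least 1 over the arrays carried most of this. Their mean ran from −0.94 to 0.68, and that of the other 21 genes from −0.13 to 0.14. Of the 27 genes, 11 were lowest on WT replicate 5, against 20.1% of all features, and 14 were highest on cKO replicate 5, against 20.7%.

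The spread was wider than for most features. The median range over the 10 arrays was 0.69 on the log2 scale, against 0.37 for all features, and the median SD within a genotype was 0.22 against 0.12. A range of at least 1 was found in 6 of the 27 genes, against 1.98% of all features: Dynlrb2 (2.72), Tmem212 (2.12), Mlf1 (1.73), Tppp3 (1.24), Foxj1 (1.21) and Rsph1 (1.13). Without the 2 arrays numbered 5, Tmem212 alone ranged over at least 1, against 1.17% of all features, and the median range was 0.48 against 0.32. The wider spread of the set therefore rested in part on those 2 arrays, and the part of their lower and higher overall signal in it was not tested.

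Genes with wide ranges had high correlations with the mean of the others, a mean of unscaled values in which such genes weigh most. For each gene the Pearson correlation with the mean of the other 26 was taken across the 10 arrays, which share a reference and a normalisation. It was at least 0.9 for 8 genes: Rsph1 (0.965), Dynlrb2 (0.944), Dnah6 (0.940), Foxj1 (0.937), Tekt1 (0.937), Mlf1 (0.932), Dnah11 (0.918) and Dnah2 (0.901). Tmem212 (0.833), Tppp3 (0.808) and Dnah10 (0.806) also reached 0.8. It was under 0 for 4 genes, Mcidas (−0.217), Dnah1 (−0.218), Ccno (−0.275) and Ccdc39 (−0.420), and Rfx2 and Rfx3 were under 0.3. Over all 10 arrays Foxj1 thus moved with the dynein, spoke and tektin genes of the first group, and the probes of Mcidas and Ccno did not. Each of these regulators was read at a single probe, and what the bright Mcidas probe detects was not tested. The share of all features that reach 0.8 or 0.9 is not given here.

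The 2 arrays farthest from the median level were the 2 numbered 5. Without them the correlation was 0.976 for Rsph1, 0.939 for Dynlrb2, 0.920 for Dnah6 and 0.843 for Foxj1, so the relations of these genes did not rest on those arrays alone. For Tppp3 it fell from 0.808 to 0.551, and for Meig1 from 0.486 to −0.454. Mcidas changed from −0.217 to 0.681 without them, so its negative value did rest on them. Hydin and Dnah10 had correlations of 0.915 and 0.930 over the 8 arrays. The arm was found in the promoters of 4 of the 8 genes in the table with a correlation of at least 0.8, and in 9 of the 15 with a lower one.

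**Figure D4:**
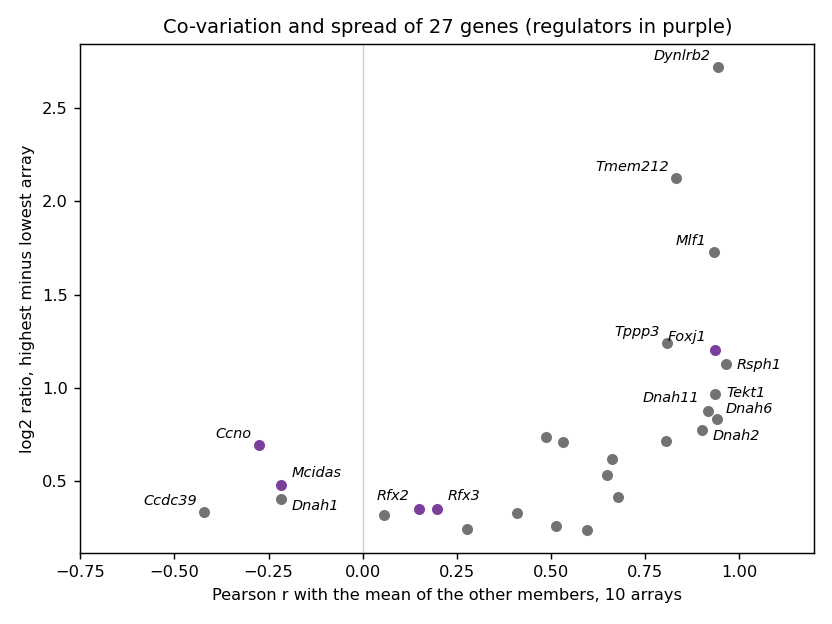
Each point is 1 of the 27 measured motile cilia genes: the x axis is its Pearson correlation with the mean of the other genes over 10 arrays, and the y axis its range in log2 ratio, highest minus lowest array. Regulators are purple; Foxj1 sits at the right with the structural genes (0.937, range 1.21), and Mcidas and Ccno lie left of 0.

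Outside the list, the 8 named features whose pattern was most like the mean of the 27 genes were Myb, 1700012B09Rik, Fam166b, Cfap126, Cfap161, Crygn, Dnali1 and Dnaaf3, chosen by Pearson correlation across the 10 arrays. Myb, a transcription factor that acts in multiciliated cells, came first at 0.988 (Spearman 0.927, and 0.968 without the 2 farthest arrays). Cfap126 and Cfap161, both ciliary proteins, had 0.966 and 0.965. Dnali1, a light chain of the inner arm, had 0.959, and Dnaaf3, which assembles dynein arms in the cytoplasm, had 0.953. None of the 8 was called between genotypes, and their differences ran from 0.19 for Cfap161 to 0.41 for Cfap126. Features on none of the lists used here also ranked high, such as Sypl (0.944) and Gab1 (0.937). The feature at rank 30, Tctex1d4, still had 0.916.

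The wider cilium program was read from further lists. Of 133 further motile cilia genes, 106 were measured, 71 had a higher mean in cKO, and the median difference was 0.02. None was called in either direction, and 9 were higher and 0 lower at an unadjusted p under 0.05, against 2.83% and 1.03% of all features. The smallest p-values belonged to Efhb (0.37, SE 0.11), Dydc2 (0.28, SE 0.10) and the dynein assembly factor Dnaaf5 (0.16, SE 0.06). The mean level of these 106 genes stayed between −0.12 on WT replicate 5 and 0.15 on cKO replicate 5, the same end arrays as for the 27.

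Of 10 further regulators of multiciliated cells, 8 were measured, 3 were higher in cKO, and the median difference was −0.01. The smallest p-values here belonged to Rfx1 (−0.13, SE 0.06), Myb (0.24, SE 0.15) and E2f4 (0.07, SE 0.05), the last a partner of multicilin. Intraflagellar transport and the BBSome build and supply all cilia, those of neurons included. All 39 of their genes were measured, 16 were higher in cKO, none was called, and the median difference was −0.02. The smallest p-values were those of Ttc26 (−0.17), Bbs12 (−0.10) and Bbs9 (−0.12). The mean level of these 39 genes lay between −0.04 and 0.05 on all 10 arrays, a narrower band than for the motile cilia genes.

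Markers of other cells shared the end arrays of the motile cilia genes in most lists, but not in all. For 21 measured choroid plexus genes of 23 the mean centred level was −0.26, −0.11, −0.18, −0.51 and −0.66 in WT replicates 1 to 5. In the cKO group it was −0.12, 0.59, −0.05, 0.22 and 1.06, so the same arrays stood at the ends. All 21 had a higher mean in cKO, with a median of 0.62; 13 were higher at an unadjusted p under 0.05 (2.83% of all features), 5 did not overlap between groups (0.768%) and 0 were called. The smallest p-values were those of the clotting factor gene F5 (1.096, SE 0.26), the potassium channel gene Kcnj13 (1.599, SE 0.38) and the chloride channel gene Clic6 (1.102, SE 0.31). Cldn1 and Cldn2 were the 2 choroid plexus genes not well above background.

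Across the 10 arrays the correlation with this choroid plexus mean was 0.912 for Rsph1, 0.906 for Foxj1, 0.896 for Mlf1, 0.778 for Dnah6, 0.673 for Tmem212 and 0.582 for Dnah10. Of the 27 genes, 20 had a lower correlation with the choroid plexus mean than with the other motile cilia genes. The other 7 had a higher one: Mcidas, Rfx2, Rfx3, Ccdc39, Tekt4, Ak8 (0.774 against 0.677) and Enkur (0.565 against 0.532). The share of the choroid plexus in these values was not tested.

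**Figure D5:**
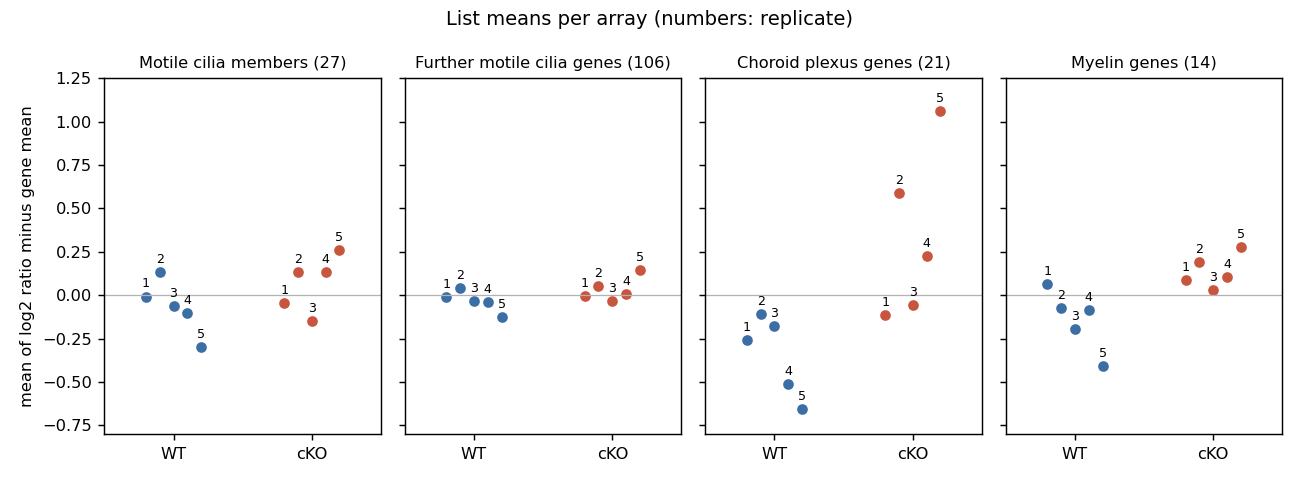
Mean of the log2 ratio minus the gene's own mean, per array, for the motile cilia genes, further motile cilia genes, choroid plexus genes and myelin genes; numbers are replicates, and each panel's title gives how many genes were averaged. WT replicate 5 is the lowest array in all 4 panels and cKO replicate 5 the highest, and the choroid plexus genes span the widest range.

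Other ependymal genes had a median difference of 0.09, with 7 of 10 higher in cKO and 1 at an unadjusted p under 0.05. The smallest p-values belonged to Mia (0.69, SE 0.27), the membrane protein gene Cd24a (0.14, SE 0.09) and the calcium-binding S100b (0.11, SE 0.07). Myelin genes had 12 of 14 higher in cKO with a median of 0.32, and 8 were higher at an unadjusted p under 0.05, against 2.83% of all features. Hapln2 (0.42) and Mag (0.51) had the smallest p-values, and the mean level of the list was lowest on WT replicate 5 (−0.41) and highest on cKO replicate 5 (0.28). Genes of the meninges had 7 of 10 higher with a median of 0.23, and 5 higher at an unadjusted p under 0.05, with the smallest p-values in Col1a1 (0.24), Slc13a4 (0.75) and Igfbp2 (0.45). Astrocyte genes had a median of 0.05 (Gfap 0.23, Slc1a2 0.14, Aldh1l1 0.11), and genes of hippocampal neurons one of 0.02 (Camk2a 0.23, Neurod6 0.20, Zbtb20 −0.18). None of these genes was called. The mean levels of the other ependymal, meninges and astrocyte genes were also lowest on WT replicate 5 and highest on cKO replicate 5. Those of the neuron genes were not (0.19 and −0.05 on these arrays). On cKO replicates 2 and 3 the astrocyte genes had −0.22 and 0.22, where the motile cilia genes had 0.13 and −0.15.

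Within the slide that held both genotypes, 19 of the 27 motile cilia genes were higher on its single cKO array than the mean of its 3 WT arrays, with a median of 0.15, against 50.4% of all features and a median of 0.0011. Foxj1 differed there by 0.45, Dynlrb2 by 0.41 and Tmem212 by 0.63, values of a single cKO array and thus no check of the genotype. Slide, tested beside genotype with an F test of limma, called 0 of 23571 features, while 4.70% had an unadjusted p under 0.05. Of the motile cilia genes 0 were called and 2 had such a p, Tmem212 (0.0350) and Meig1 (0.0232).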

How the data were processed

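The deposited scanner files hold the authors' median intensity of each spot and its local background in both channels, from Agilent Feature Extraction 11.0.1.1 per the file headers. The authors' deposited value table holds log2 ratios per probe. Its columns had a correlation of at least 0.99997 with the log2 ratios of Cy5 over Cy3 computed here, so its scale and direction are the same, without centring of genes; it was used as an alternative. The submitters' processing notes name limma without settings.

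Spots marked as non-uniform were removed, backgrounds were corrected with normexp (offset 50), and arrays were normalised by loess in limma 3.58.1 and R 4.3.3 with control spots at weight 0. The offset pulls ratios of dim spots towards 0. Of 39429 probes, 28682 were kept (Cy5 well above background on at least 5 of 10 arrays). RefSeq accessions named 26581 probes (67.4%) through a gene table of GRCm38.p6. Genotypes were compared by lmFit and eBayes, two-sided. On simulated data with 23574 features, 98% of genes changed by 1 on the log2 scale were recovered, and 7 unchanged features were called. That share need not hold for the motile cilia genes, whose median SD within a genotype was 0.22, against 0.12 for all features. In the data, differences above 1 such as those of F5 (1.096) and Kcnj13 (1.599) were not called.

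The genes and marker lists were chosen with earlier results of these data known, the choroid plexus and myelin lists included. Values on every array were given for the regulators and for the 10 genes with the smallest unadjusted p; Tppp3 was added after its values were seen. From each other list the 3 genes with the smallest p were named. One gene that this rule names is not reported here. Probe and protein sequences were not used here. Alternatives covered background, normalisation, filter, probe choice, slide, array weights, pairing and leaving out each array.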

Additional observations from a re-analysis of the deposited data

Results flagged for a closer look

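In 2 of 58 tests for a single distant array within a genotype, 1 array stood apart; chance alone gives about 1 in 20. Both were WT replicate 5. Tppp3 had a log2 ratio of 2.08 there, against 2.87 to 3.05 on the other 4 WT arrays. Meig1 had 2.85 there, against 3.21 to 3.33.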

How the results depend on the processing

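In none of 26 alternatives was a motile cilia gene called; the lowest adjusted p of any was 0.446. The number of the 27 genes higher in cKO lay between 17 and 24, and their median difference between 0.03 and 0.20. The number with an unadjusted p under 0.05 lay between 0 and 7, the highest without cKO replicate 3 and the next, 6, without WT replicate 2. Foxj1, Rsph1, Tekt1, Dnah6, Dnah10, Dnah11, Tmem212, Ak8, Iqca, Mlf1 and Dynlrb2 were higher, and Ccno lower, in cKO in every fit that measured them.

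Of all features, 0 were called with every spot in the background fit, with plain background subtraction and on slide 2 only, and 2 with the mean of the kept probes. Without 1 array the number was 1 to 2 (2 without cKO replicate 4). Map3k12 was not called in those fits with 0 calls or with Cy5 alone (−1.26, −1.79, −1.81 and −1.17). On slide 2 the 1 cKO array was assumed to vary like the WT arrays. The cause was not tested.

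Some larger differences moved by over 1.5 times: to 0.57 for Foxj1 and 0.53 for Tekt1 with every spot in the background fit, and to 0.94 for Dnah6, 0.69 for Dnah10 and 0.64 for Dnah11 with the processed signals.

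Small differences changed sign. With every spot in the background fit they were Rsph4a 0.047, Rsph9 0.11, Ccdc39 0.077, Dnah1 0.022 and Dnah5 0.19. With an offset of 16 they were Rsph9 0.0025 and Dnah5 0.031. With plain subtraction they were Dnah1 0.39, Dnah2 −0.0043 and Dnah5 1.85. With the software's processed signals they were Mcidas −0.0097, Rfx3 −0.15, Rsph4a 0.052, Tekt2 0.085, Hydin −0.037, Dnah1 0.17, Dnah2 −0.14 and Meig1 −0.081. With Cy5 alone they were Rfx2 0.0094, Rsph4a 0.069, Ccdc39 0.018, Tekt2 0.030 and Dnah5 0.013. With slide as a fixed block, and on slide 2 only, they were Rsph4a 0.032, Tekt4 −0.11, Dnah5 0.15 and Meig1 −0.37. With slide as a random block they were Mcidas −0.0024, Rsph9 0.016 and Enkur −0.037. With array weights they were Dnah1 0.0023 and Enkur −0.063. The Dnah5 value of 1.85 is not small, but plain subtraction drops spots at or below background. The reference signal of Dnah5 was 30 to 40, on median reference backgrounds of 33 to 37. That value may thus rest on fewer arrays, whose number is not given here.

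Without both arrays numbered 5, an alternative chosen after seeing the data, 17 of 27 genes were higher with a median of 0.03, and Dnah1 was 0.0033, Dnah2 −0.041, Dnah5 0.0094, Enkur −0.12, Meig1 −0.096 and Tppp3 −0.080. Without 1 array, Mcidas ranged from −0.027 to 0.083, Rfx2 from −0.085 to 0.0025, Rsph4a from −0.096 to 0.037, Rsph9 from −0.036 to 0.025, Dnah1 from −0.091 to 0.0094, Dnah5 from −0.058 to 0.022, Enkur from −0.056 to 0.12 and Meig1 from −0.013 to 0.16. The cause was not tested.

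Replicate numbers did not pair the arrays: correlations of the deviations of same-numbered arrays were −0.56 to 0.16, and 0 arrays correlated best with their own number. With the replicate block 1 feature was called, 609 had an unadjusted p under 0.05 against 911 without it, 19 of 27 motile cilia genes were higher and the median was 0.09. The number of arrays and dim spots, such as those of Dnah5, limit the precision.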
